A study of Mus musculus with 10 samples.

Results

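This account describes 10 genes of the cardiac extracellular matrix, the small leucine-rich proteoglycans decorin (Dcn), biglycan (Bgn), asporin (Aspn), lumican (Lum), fibromodulin (Fmod), prolargin (Prelp) and osteoglycin (Ogn), with versican (Vcan), cartilage intermediate layer protein (Cilp) and cartilage oligomeric matrix protein (Comp). They were taken by gene name, as every probe carrying 1 of these names, which gave 16 of the 56605 probes on the array. A probe passed the filter if the scanner software called it well above background in 1 genotype on 4 or more of its 5 arrays. Of the 16 probes 14 were kept, and all 10 genes were among the 20607 genes tested. Cardiac tissue of male C57BL/6 mice was profiled on 10 Agilent arrays of 1 colour, 5 labelled HIPK2 knockout and 5 labelled wild type. The knockout came from CRISPR injected into embryos, which removed 56 bases from the second exon of Hipk2 and shifted the reading frame, and founders were bred to wild-type C57BL/6 mice. The labels do not give the age of the mice, the part of the heart or whether each sample is a separate mouse, so the spread behind each p-value is that between samples and may be technical. The deletion is carried by a bred colony, with no Cre or promoter that limits it to a tissue, and the number of founders behind the colony is not stated.

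Small leucine-rich proteoglycans are secreted proteins whose curved leucine-rich repeats bind collagen and set the width and spacing of its fibrils. Many also hold growth factors such as transforming growth factor beta outside the cell, and fibroblasts are their main source in the heart. Versican is a large proteoglycan that carries chondroitin sulfate chains and binds hyaluronan, and Cilp and Comp were first found in cartilage. HIPK2, the deleted kinase, acts in the nucleus on regulators of transcription.

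The probes are single strands of 60 bases, and 6 of them are shown because they show what part of the message each reading comes from. The decorin probe, on chr10:96980233-96980292 of mm9, reaches the end of the coding sequence, and its capitals mark the stop codon. The biglycan probe on chrX:70738554-70738613 and the prolargin probe on chr1:135809343-135811065, which spans a splice junction, read through the leucine-rich repeats. Their capitals mark leucine codons in the only reading frame without a stop. The first versican probe lies on chr13:89851810-89851869. The second spans the junction on chr13:89865266-89871120, nearer the 5′ end of this gene on the minus strand. The Comp probe spans a short intron. No letters are in capitals in these last 3 sequences.
Dcn A_51_P334104: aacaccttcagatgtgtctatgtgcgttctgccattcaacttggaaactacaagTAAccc
Bgn A_52_P162486: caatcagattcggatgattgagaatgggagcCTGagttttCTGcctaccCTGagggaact
Prelp A_65_P16773: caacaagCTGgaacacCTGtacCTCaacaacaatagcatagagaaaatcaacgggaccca
Vcan A_55_P1960208: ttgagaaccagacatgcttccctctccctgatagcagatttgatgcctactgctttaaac
Vcan A_52_P168953: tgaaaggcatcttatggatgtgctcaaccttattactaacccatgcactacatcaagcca
Comp A_51_P409010: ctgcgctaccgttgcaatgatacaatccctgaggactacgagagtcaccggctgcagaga

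All levels below are log2 signal relative to the 75th percentile of the same array, so 0 is the level of that percentile, and differences are knockout minus wild type, given ± SE of the fit, while group means are given ± SD. Levels of different probes cannot be ranked against each other, since probes bind with different strength. The 75th percentile itself was 286 to 460.5 intensity units on the knockout arrays and 462 to 542 on the wild-type arrays. Spots well above background made up 45.8% to 58.3% of the knockout arrays and 55.7% to 60.4% of the wild-type arrays. Slide 1 held wild-type replicates 1 and 2 alone and slide 2 the other 8 arrays. On slide 2 the row of the array nearly coincided with genotype, with knockout replicates 2 to 5 in row 2 and wild-type replicates 3 to 5 in row 1 beside knockout replicate 1, so row and genotype can hardly be told apart there. The Hipk2 probe gave 1.54 ± 0.31 on wild-type arrays and 1.58 ± 0.25 on knockout arrays (SD, n = 5 each), a difference of 0.04 ± 0.16 (SE; limma adjusted p = 0.902). The transcript level therefore does not check the labels. Cardiomyocyte markers averaged 8.21 ± 0.28 in wild type and 8.70 ± 0.21 in knockout (exact permutation p = 0.0159, 0.0437 adjusted over 11 marker lists). That difference of 0.49 was 0.088 with quantile normalization (exact permutation p = 0.0476) and 0.29 within slide 2 (exact permutation p = 0.0714). None of the 6 cardiomyocyte markers passed in limma, and 1 of them, Ryr2, differed by -0.013 (limma adjusted p = 0.944). The 10 fibroblast markers were all measured, averaged 1.04 to 1.75 on knockout arrays and 1.59 to 1.82 on wild-type arrays, and 2 of them, Mfap5 and Cd248, fell. The fitted difference was below 0 for 7 of the 10, and above 0 for Col15a1 (0.40), Dpep1 (0.24) and Tcf21 (0.05), none of which passed the test. Of 8 chondrocyte markers Acan, Col9a1, Matn1, Matn3 and Hapln1 did not pass the filter, and of 4 tendon markers Tnmd and Mkx did not. In whole tissue, fewer cells of a type and less RNA per cell cannot be told apart.

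Versican fell and osteoglycin rose in the knockout, and the other 8 genes did not pass the test. The background was 4.94% of all 20607 genes past the same threshold, a limma adjusted p under 0.05, with 1.97% higher and 2.97% lower in knockout. The fitted difference was below 0 for 7 of the 10 genes and for 45.9% of all genes tested, and the median difference was -0.21 over the 10 and 0.03 over all genes. Fibromodulin, 1 of these 7, passed the filter through wild type alone, so its direction is not independent of the filter. Versican was the 1 gene of the 10 whose genotypes did not overlap, which was so for 8.98% of all genes. At the level of probes 3 of 14 passed, 2 of versican and 1 of osteoglycin, against 4.44% of all kept probes (2.76% lower in knockout). Of the versican probes, A_52_P168953 was too dim on all 5 knockout arrays to be called above background and passed the filter through wild type alone, so it is counted here and supports nothing.

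**Figure D1:**
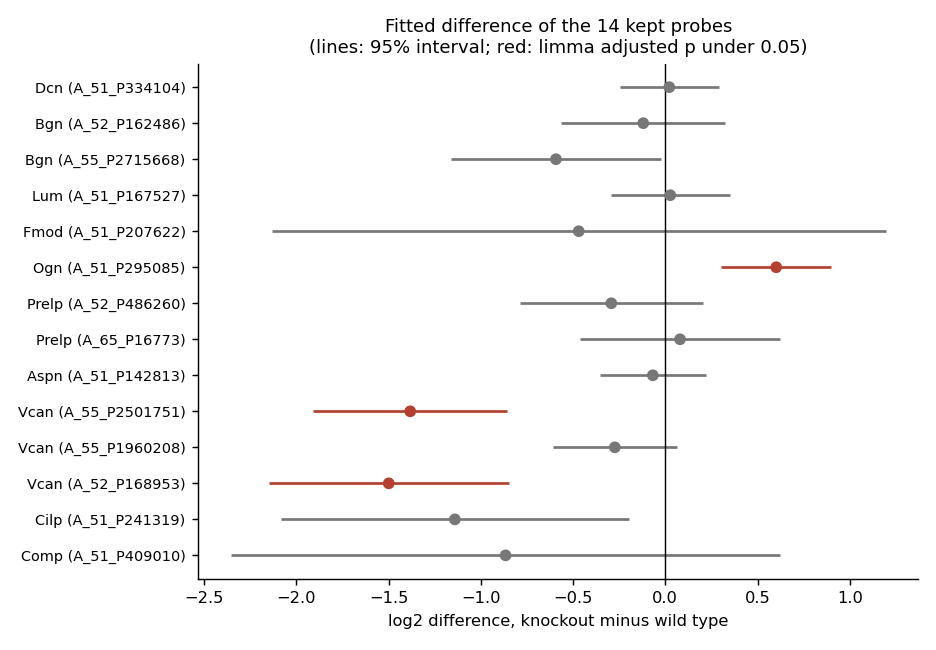
Fitted difference of the 14 kept probes of the 10 genes, in log2 units, knockout minus wild type, with the 95% interval as a line and probes past a limma adjusted p of 0.05 in red. Osteoglycin lies right of 0, versican probes A_55_P2501751 and A_52_P168953 lie left of it, the latter too dim in knockout for more than a bound, and the intervals of Fmod and Comp are the widest.

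Osteoglycin, also called mimecan, is the class III member and takes part in collagen fibril formation. Its probe, on chr13:49719549-49719608 of mm9, gave 3.88, 3.87, 3.48, 3.74 and 3.97 on knockout arrays 1 to 5. The wild-type arrays gave 3.53, 3.34, 3.00, 3.13 and 2.95. Knockout replicate 3 was the only knockout array below a wild-type array, wild-type replicate 1, and the other 4 lay above all 5 wild-type arrays. The means were 3.79 ± 0.19 and 3.19 ± 0.24 (SD, n = 5), a rise of 0.60 ± 0.13 (SE), or 1.52-fold, and its 95% interval ran from 0.31 to 0.90 (limma adjusted p = 0.0349). Within slide 2 the rise was 0.77 (limma adjusted p = 0.0281). The call held in 2 of 10 fits that left out an array, those without knockout replicate 3 or wild-type replicate 1. It was lost without knockout replicate 1 (limma adjusted p = 0.0710), 2 (0.0761), 4 (0.0647) or 5 (0.0560) and without wild-type replicate 2 (0.0592), 3 (0.0604), 4 (0.0792) or 5 (0.0750), and the rise was 0.54 to 0.69 over all 10 of these fits. It was also lost without the filter on dim probes (0.0761), with slide and array row as covariates (0.86, limma adjusted p = 0.162), with the atrial marker score (0.50, 0.139) and with atrial and fat scores (0.53, 0.260). Fibroblast markers, in contrast, were lower on average in knockout by 0.28 (exact permutation p = 0.0317, 0.0698 adjusted over the lists), and their part in the values of the 10 genes was not tested.

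The genes around osteoglycin are of the same family. In the RefSeq order of chromosome 13, Ecm2, Aspn, Omd and Ogn follow each other with no other coding gene between them. Asporin, a class I member that binds collagen, gave -1.36 to -1.11 on knockout arrays and -1.47 to -0.86 on wild-type arrays, a difference of -0.07 ± 0.13 (SE), and its 95% interval ran from -0.35 to 0.22 (limma adjusted p = 0.767). Osteomodulin (Omd), which is best known from bone, differed by 0.44 ± 0.21 (limma adjusted p = 0.205), and its probe was well above background on 3 of 5 knockout arrays. That probe passed the filter through wild type alone. Ecm2 differed by 0.10 ± 0.11 (limma adjusted p = 0.600). So osteoglycin was the 1 gene of these 4 that passed the test, beside 4.94% of all genes. The cluster was looked at because of osteoglycin, so this count was at least 1 in advance. Ecm2 and Omd were named after their values were seen. The log ratio of osteoglycin to asporin on the same array was 5.01 ± 0.23 in knockout and 4.34 ± 0.52 in wild type, a change of 0.67 (exact permutation p = 0.0476, 0.0635 adjusted over 8 probe pairs, which were chosen after values were seen). Against decorin the same ratio changed by 0.58 and against lumican by 0.57 (exact permutation, adjusted p = 0.0508 for both).

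The promoter of osteoglycin is shown because it sits in this cluster and because it holds the motif TATAAA. Each motif was searched on both strands in the 250 bases before the start. It is the RefSeq stretch chr13:49607765-49608014 of GRCm38.p6, plus strand, and capitals mark 2 overlapping matches, 1 on each strand, at -229 and -227 from the start.
Ogn promoter: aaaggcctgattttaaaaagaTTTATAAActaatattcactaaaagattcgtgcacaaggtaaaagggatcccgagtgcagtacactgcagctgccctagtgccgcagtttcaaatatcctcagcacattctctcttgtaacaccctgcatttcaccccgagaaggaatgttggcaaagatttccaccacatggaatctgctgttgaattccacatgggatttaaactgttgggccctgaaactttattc
Of 32851 promoters of this length, 12.4% held TATAAA. Promoters were found in the RefSeq table for 7 of the 10 genes, and those of Ogn and Aspn held it. The SMAD box CAGAC was in 42.2% of promoters, among them those of Fmod and Prelp. The AP-1 motif TGANTCA was in 6.75%, among them none of the 7. The versican promoter held none of the 3 motifs. A match says only that these letters are there.

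Decorin and biglycan, the class I members that carry chondroitin or dermatan sulfate chains and bind transforming growth factor beta, did not pass the test. Decorin gave 6.82 to 7.51 in knockout and 7.0 to 7.24 in wild type. Its difference was 0.022 ± 0.12 (SE), and its 95% interval ran from -0.24 to 0.29 (limma adjusted p = 0.926). The direction of decorin turned with quantile normalization (-0.18). The brightest biglycan probe gave -0.34 to 0.61 in knockout and -0.04 to 0.55 in wild type, a difference of -0.12 ± 0.20 (95% interval -0.56 to 0.33, limma adjusted p = 0.735). A second biglycan probe, A_55_P2715668 on chrX:70731578-70731637, gave -2.96 to -1.88 in knockout and -2.45 to -1.41 in wild type, a difference of -0.59 ± 0.26 (limma adjusted p = 0.176 over all kept probes). The log ratio of both biglycan probes on the same array moved by 0.47 between genotypes (exact permutation p = 0.0317, 0.0508 adjusted over the 8 pairs). The last, on chrX:70737025-70737084, was well above background on 0 of 10 arrays.

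Lumican, fibromodulin and prolargin, the class II members that carry keratan sulfate or bind collagen through their repeats, did not pass either. Lumican, which lies next to decorin on chromosome 10, gave 1.80 to 2.48 in knockout and 1.70 to 2.20 in wild type, with a difference of 0.027 ± 0.15 (95% interval -0.29 to 0.35, limma adjusted p = 0.924). Its sign turned when background was corrected by normexp (-0.010). Prolargin gave 2.54 to 3.84 in knockout and 3.06 to 3.78 in wild type, with a difference of -0.29 ± 0.22 (95% interval -0.79 to 0.20, limma adjusted p = 0.422). Its junction probe, A_65_P16773, differed by 0.08 ± 0.25 (limma adjusted p = 0.863), and the last probe was well above background on 2 of 5 wild-type arrays and on 0 of 5 knockout arrays and was not kept. Fibromodulin was dim, with -4.55 to -1.14 in knockout and -4.59 to -1.50 in wild type, and was well above background on 3 of 5 knockout arrays. It passed the filter through wild type alone. It differed by -0.47 ± 0.76 (95% interval -2.14 to 1.20, limma adjusted p = 0.720), the widest interval of the 10, and its sign turned with normexp (0.016). Leaving out each array moved it from -1.02, without knockout replicate 5, to -0.13, without wild-type replicate 2, and moved prolargin from -0.47, without knockout replicate 5, to -0.15, without knockout replicate 4.

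**Figure D2:**
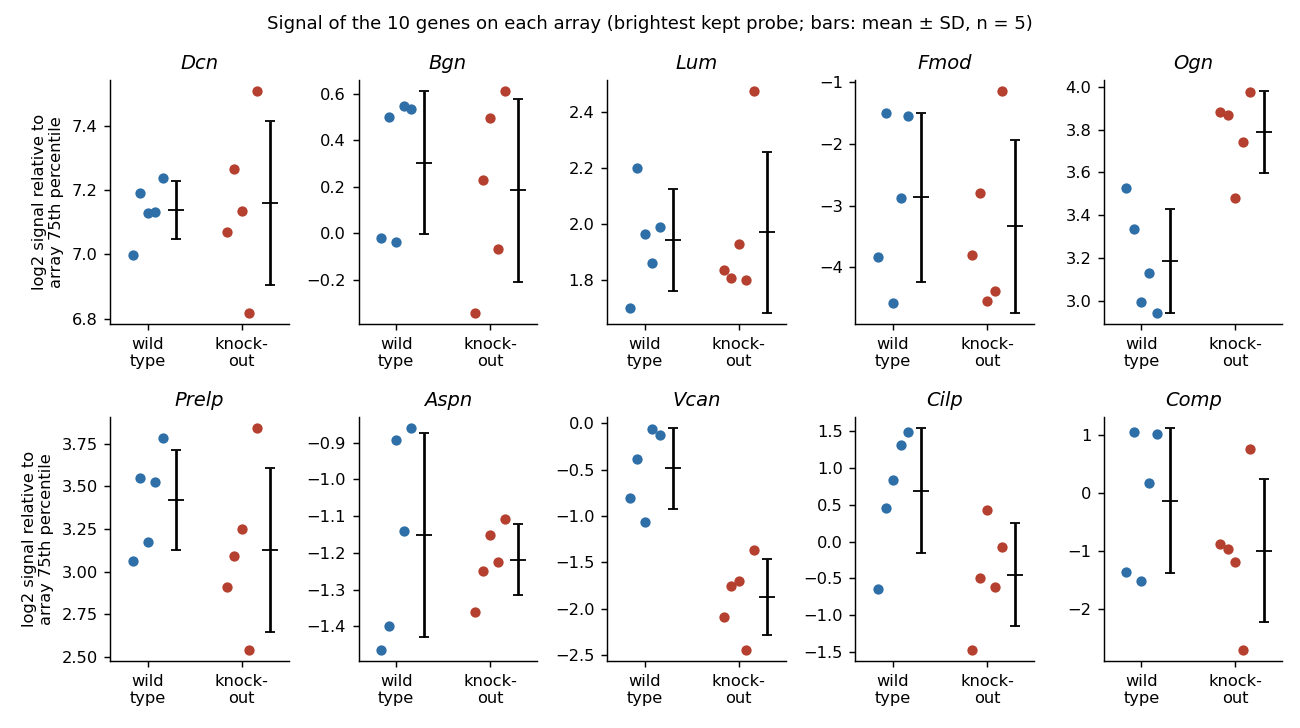
Log2 signal relative to the 75th percentile of the array, for the brightest kept probe of each of the 10 genes, with 1 point per array, knockout in red and wild type in blue, and a bar at each group mean. Versican shows 5 knockout points below all 5 wild-type points, osteoglycin shows knockout points above except replicate 3, and Fmod and Comp spread widely in both genotypes.

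Versican fell, and the fall depended on the probe. The brightest probe, A_55_P2501751, lies on chr13:89795080-89795139 of mm9 and is the nearest of the 3 to the 3′ end. It gave -2.08, -1.75, -1.70, -2.45 and -1.37 on knockout arrays 1 to 5. The wild-type arrays gave -0.81, -0.38, -1.06, -0.06 and -0.13. All 5 knockout arrays were below the lowest wild-type array, replicate 3. The means were -1.87 ± 0.41 and -0.49 ± 0.43 (SD, n = 5), a difference of -1.38 ± 0.24 (SE), and its 95% interval ran from -1.91 to -0.86, so versican was 2.61-fold lower (limma adjusted p = 0.0159). The call held in all 10 fits that left out an array, with differences of -1.53 to -1.24 and a limma adjusted p of up to 0.0453, and within slide 2 (-1.45, limma adjusted p = 0.0443). It was lost without the filter on dim probes (limma adjusted p = 0.0536), with slide and array row as covariates (-1.67, limma adjusted p = 0.214), with the atrial marker score (-1.18, 0.0808) and with atrial and fat scores (-1.21, 0.183).

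A_55_P1960208, called the middle probe because it lies between the others on the chromosome, did not pass the test. By the array's positions it starts at base 1428 of a listed transcript, in which A_52_P168953 starts at base 459. The 3′ probe A_55_P2501751 starts at base 12207 of another listed transcript. On knockout arrays 1 to 5 the middle probe gave -2.17, -2.03, -1.62, -2.29 and -1.92, and on wild-type arrays -2.13, -1.71, -1.80, -1.46 and -1.59. The groups overlapped, and the difference was -0.27 ± 0.15 (SE), and its 95% interval ran from -0.61 to 0.06 (limma adjusted p = 0.277 over all kept probes). On the same arrays the log ratio of the 3′ probe to this probe was 0.14 ± 0.29 in knockout and 1.25 ± 0.29 in wild type, with no overlap. It changed by -1.11 (exact permutation p = 0.00794, the smallest this design allows, and 0.0317 adjusted over the 8 pairs). The pairs were chosen after values were seen. Among them the pair of A_52_P168953 and the middle probe tied at the same unadjusted p, which lowered the adjusted value. That pair carries no weight, since A_52_P168953 passed the filter through wild type alone. The adjusted value of 0.0317 depends on this tie, so it is not read as passing a threshold. The change of the 3′ probe against the middle probe was -1.24 to -1.04 when each array was left out. It was -0.85 with normexp, its smallest size under any alternative run.

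The junction probe A_52_P168953 gave -5.13, -6.09, -4.53, -5.90 and -4.85 on knockout arrays 1 to 5. The wild-type arrays gave -3.95, -3.87, -4.23, -3.37 and -3.57. It was well above background on 5 of 5 wild-type arrays and on 0 of 5 knockout arrays, so only a bound can be given there. It passed the filter through wild type alone and so had to differ, and its call is no support for the fall. The bound, which takes the higher of its own signal and the dimmest signal well above background on each knockout array, was at least 1.68-fold lower in knockout (limma adjusted p = 0.0255 from the values as measured). Its call was lost without knockout replicate 4 (limma adjusted p = 0.0504) and without wild-type replicate 2 (0.0555), 4 (0.0603) or 5 (0.0623). It was lost within slide 2 too (0.0712), and with normexp the difference was -0.10 (limma adjusted p = 0.559), smaller than the bound. The array assigns 4 transcripts to each of the 3 probes. The junction probe and the middle probe share all 4, and each shares 3 with the 3′ probe. The list of the 3′ probe thus overlaps theirs but is not the same. Whether the use of transcripts differed between genotypes was not tested.

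**Figure D3:**
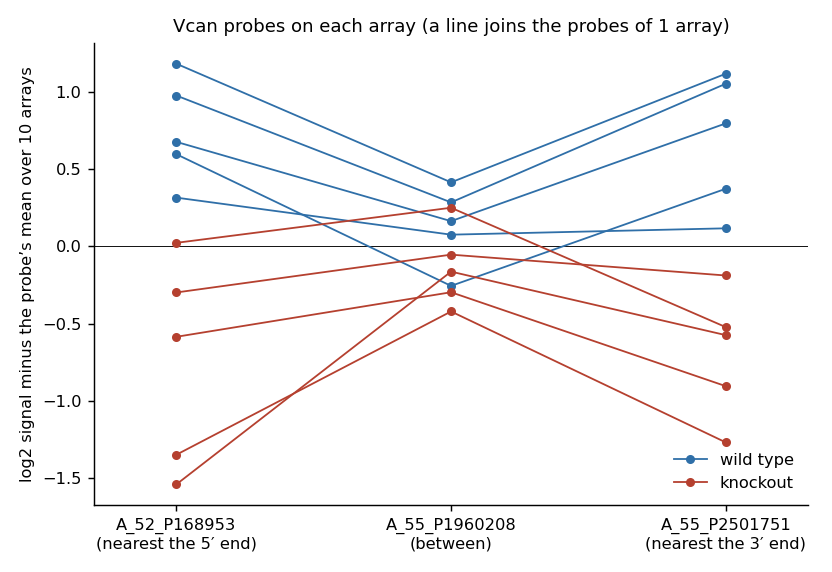
Signal of the 3 versican probes on each array, as log2 signal minus the mean of that probe over the 10 arrays, with a line joining the probes of 1 array. For the 3′ probe A_55_P2501751 all wild-type arrays lie above all knockout arrays. For A_55_P1960208, which lies between the other probes on the chromosome, the genotypes overlap. The knockout points of A_52_P168953 are not well above background.

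Cilp, which binds transforming growth factor beta and is made by cardiac fibroblasts, was lower on average but did not pass the test. Its probe lies on chr9:65128007-65128066. The knockout arrays 1 to 5 gave -1.48, -0.50, 0.42, -0.61 and -0.07, and the wild-type arrays gave -0.64, 0.46, 0.84, 1.31 and 1.48. Wild-type replicate 1 lay among the knockout arrays, and the other 4 wild-type arrays lay above all 5 knockout arrays. The difference was -1.14 ± 0.43 (SE), 2.20-fold, and its 95% interval ran from -2.09 to -0.20 (unadjusted p = 0.0224, limma adjusted p = 0.124). Within slide 2, which lacks wild-type replicates 1 and 2, it was -1.66 (limma adjusted p = 0.0575), and with the atrial marker score as a covariate it was -0.56 (limma adjusted p = 0.427). Cilp followed that score across the 10 arrays with a Pearson r of 0.787, as a description.

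Comp, a thrombospondin that binds collagens, did not pass the test and spread over the widest fold range of the 10 genes. Its probe spans chr8:72905692-72905825. The knockout arrays 1 to 5 gave -0.87, -0.95, -1.18, -2.70 and 0.76, and the wild-type arrays gave -1.35, 1.05, -1.52, 0.18 and 1.02. The groups overlapped over nearly their whole range, and the difference was -0.87 ± 0.68 (SE), and its 95% interval ran from -2.36 to 0.63 (limma adjusted p = 0.431). Single arrays moved it: leaving out knockout replicate 4 gave -0.44 and knockout replicate 5 gave -1.30, while leaving out wild-type replicate 2 gave -0.57 and wild-type replicate 5 gave -0.58. The highest array was 13.5-fold above the lowest.

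The 10 genes differed in their spread over the 10 arrays, which includes any difference between genotypes. The SD was 0.18 for Dcn, 0.20 for Aspn, 0.23 for Lum, 0.34 for Bgn, 0.38 for Ogn and 0.40 for Prelp. It was 0.83 for Vcan, 0.95 for Cilp, 1.25 for Comp and 1.33 for Fmod, whose highest array was 10.9-fold above its lowest. Much of the versican spread lay between genotypes, since its SD within them was 0.41 and 0.43, beside 0.48 and 0.29 for Prelp and 0.39 and 0.31 for Bgn, knockout first. Knockout replicate 5, wild-type replicate 2 and wild-type replicate 5 were the 3 highest arrays for each of Lum, Fmod, Prelp and Comp. These 4 genes thus shared their highest arrays across genotypes. The atrial marker score, over Myl7, Myl4 and Sln, ranged from -2.75 to 1.56 in knockout and from -3.02 to 4.81 in wild type, a difference of -2.71 (exact permutation p = 0.127). Without wild-type replicate 1 it was -4.02 (exact permutation p = 0.0159), and within slide 2 it was -3.61 (exact permutation p = 0.0357). Its Pearson r over the 10 arrays, which share scaling and genotype, was 0.632 with Vcan, 0.620 with Comp, 0.617 with Prelp, 0.605 with Bgn, 0.241 with Dcn and -0.638 with Ogn. With this score as a covariate the difference of Comp was -0.14, that of Prelp -0.067, that of Bgn 0.11, that of Fmod 0.24 and that of Ogn 0.50. The sign of Bgn and Fmod thus turned, as did that of Aspn (0.035). In this limma fit 0 of the 10 genes passed, and 2 had an unadjusted p under 0.05. Other marker scores ran closer to some genes than the atrial score. The r was 0.893 for Vcan with the macrophage score and 0.853 with the endothelial score, 0.807 for Cilp with the endothelial score and -0.856 for Ogn with the endothelial score. These scores differ between genotypes themselves, and their part in the results was not tested.

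**Figure D4:**
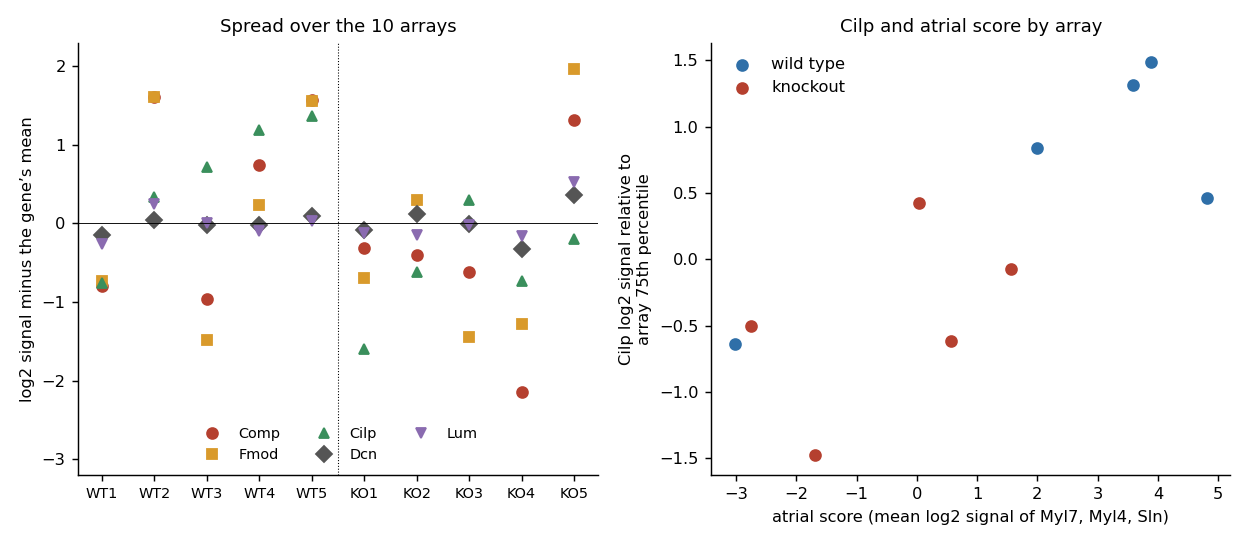
Left, log2 signal of Comp, Fmod, Cilp, Dcn and Lum on each array minus the mean of the gene, wild type then knockout; right, Cilp log2 signal against the atrial marker score, 1 point per array. Fmod and Comp are high together on wild-type replicates 2 and 5 and knockout replicate 5 while Dcn stays near 0, and the 4 arrays highest in Cilp are wild type with an atrial score above 0.

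For the 3 most variable genes, the genes with the closest profiles over the 10 arrays were sought among 14191 named genes, by the root-mean-square difference of log2 signal after centring each gene. The nearest to Cilp was Ltbp2, a microfibril protein related to the latent transforming growth factor binding proteins, at 0.273, where Cilp itself varied by 0.901. Next came the secreted factor Gdf15 at 0.436 and the proton pump subunit Atp6v0a4 at 0.448. The nearest to Fmod were the kinesin Kif1a at 0.618, the Dickkopf relative Dkk3 at 0.637 and the scavenger receptor Scara3 at 0.700. The nearest to Comp were Dkk3 at 0.620, Syt12, a synaptotagmin, at 0.637 and Kif1a at 0.652. Fmod and Comp were 0.549 apart, closer to each other than to any of these, and the same root-mean-square spread was 1.26 for Fmod and 1.19 for Comp.

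Related genes that passed the test were lower in knockout with 1 exception. In 7 lists 86 genes were measured, of which 1 rose, 10 fell and 75 did not pass, and 64 of the 86 had a fitted value below 0. Some passed the filter through wild type alone, so their direction is not independent of it. These were Cilp2, Dse, Mmp13, Met, Col5a2 and Col12a1 below 0 and Omd, Col11a2 and Tll1 above 0. Of all genes tested 1.97% were called higher, 2.97% lower and 45.9% had a fitted value below 0. The median over the 86 was -0.20, against 0.03 over all genes. Among 7 measured small leucine-rich relatives 1 rose and 0 fell, with a list median of 0.10. The gene that rose was Chadl, chondroadherin-like, which limits collagen fibril formation, from -0.03 ± 0.08 to 0.31 ± 0.11, or by 0.34 ± 0.08 (limma adjusted p = 0.0421), and its call held in 1 of 10 fits that left out an array. Podocan (Podn), named after its value was seen, differed by 0.70 ± 0.23 (limma adjusted p = 0.0893). None of 14 hyalectans, link proteins and cartilage genes passed, with a median of -0.015. In that list Sox9, the transcription factor of cartilage, differed by 0.46 ± 0.16 (limma adjusted p = 0.102), with the sign turned when its probes were averaged (-0.12), and matrilin 2 (Matn2) by -0.25 ± 0.10 (0.128).

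The falls lay in the lists of thrombospondins, sulfate chain synthesis, proteases, collagens and binding partners, beside 2.97% of all genes called lower. Among 4 thrombospondins, relatives of Comp, 1 fell, Thbs1, which activates latent transforming growth factor beta (-1.56 ± 0.34, limma adjusted p = 0.0334), and the list median was -0.47. The fitted value was below 0 for 3 of the 4 and above 0 for Thbs2 (0.40 ± 0.17, limma adjusted p = 0.165). Among 19 genes of chondroitin and dermatan sulfate synthesis 2 fell and 0 rose, with a median of -0.12. They were Dsel, an epimerase that makes dermatan sulfate (-0.54 ± 0.13), and Chst3, a chondroitin sulfotransferase (-0.64 ± 0.16), with limma adjusted p of 0.0393 and 0.0491. Among 14 proteases that cleave proteoglycans 3 fell, with a median of -0.38. Adamts4, which cuts versican and aggrecan, differed by -1.97 ± 0.34 (limma adjusted p = 0.0154). Adamts9, a versican protease, differed by -0.54 ± 0.13 and the membrane protease Mmp14 by -0.85 ± 0.18, with limma adjusted p of 0.0449 and 0.0322. With normexp Mmp14 differed by -0.22 (limma adjusted p = 0.0945).

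All 10 collagens bound by these proteoglycans had a fitted value below 0, as had 45.9% of all genes, and 1 fell, Col5a1, a fibril-starting chain (-0.79 ± 0.19, limma adjusted p = 0.0404), with a list median of -0.63. Col5a2 and Col12a1 passed the filter through wild type alone, so their direction is not independent of the filter. Among 18 ligands and receptors 3 fell and 0 rose, beside 2.97% and 1.97% of all genes, with a median of -0.32. They were the decorin-binding receptor Met (-1.60 ± 0.29), the endothelial receptor Kdr (-0.80 ± 0.13) and fibrillin 1 (Fbn1, -0.88 ± 0.18), with limma adjusted p of 0.0187, 0.0147 and 0.0271. In knockout Met was well above background on 2 of 5 arrays, and it passed the filter through wild type alone, so the size of its difference is uncertain and its call is not independent of the filter. Adamts4 and Kdr kept their calls in all 10 fits that left out an array. Leaving Met aside, the other 7 falls kept theirs in 1 to 5 of the 10, and the adjusted p rose to between 0.0661 and 0.106 in the least favourable fit of each. With normexp Adamts4 differed by -1.05 and Met by -0.59. With the atrial score as a covariate 0 of the 86 related genes passed in limma, and 23 had an unadjusted p under 0.05. Endothelial markers, of which Kdr is 1, averaged 3.29 ± 0.08 in wild type and 2.97 ± 0.10 in knockout (exact permutation p = 0.00794, 0.0437 adjusted over the lists), and macrophage markers 2.04 ± 0.10 and 1.68 ± 0.25 (exact permutation p = 0.0159, adjusted 0.0437). Fat markers were lower by 1.91, with the difference of all 4 below 0 (exact permutation p = 0.0397, adjusted 0.0728). Of these Cfd, Car3 and Retn passed the filter through wild type alone, so their direction and the fat score are not independent of the filter. Wt1, the 1 mesothelial marker kept, differed by -0.35 (exact permutation p = 0.0159, adjusted 0.0437). As a single gene Wt1 did not pass the test (limma adjusted p = 0.0675). The part of these markers in the falls was not tested.

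**Figure D5:**
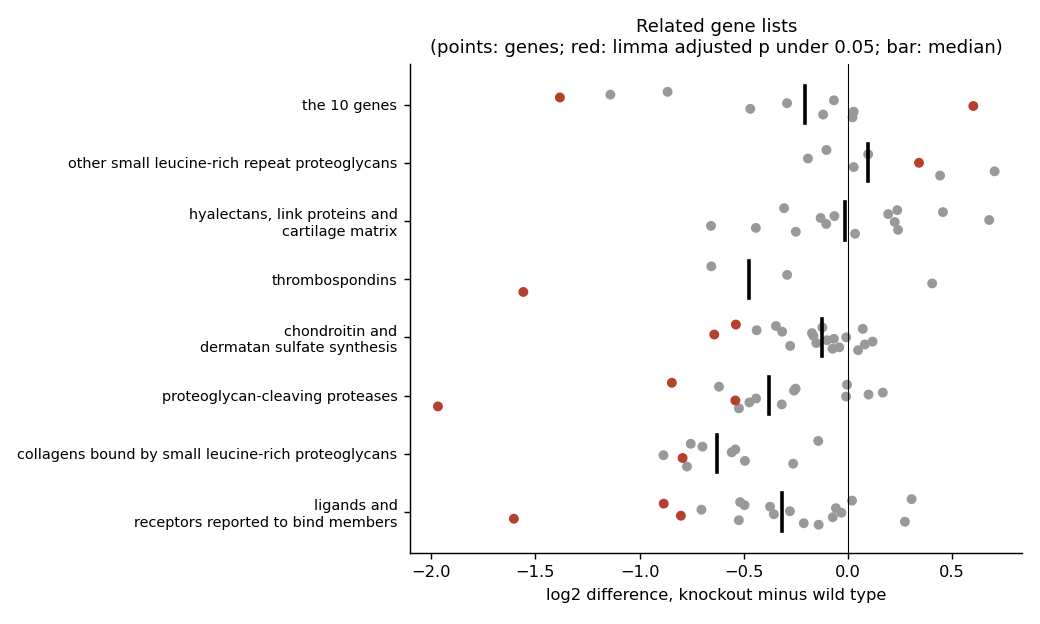
Fitted difference, in log2 units and knockout minus wild type, of each measured gene in the 10-gene set and in 7 related lists, with genes past a limma adjusted p of 0.05 in red and the median of each list as a bar. The collagens all lie left of 0, of which Col5a2 and Col12a1 passed the filter through wild type alone. The thrombospondin and protease medians are -0.47 and -0.38, and Chadl is the only related gene in red right of 0.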

How the data were processed

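Single-colour arrays were read from the deposited scanner files, which hold spot intensity on a linear scale as written by Agilent Feature Extraction 10.7.1.1, per the submitters' processing notes. Background subtraction and spatial detrending were done array by array before deposit, per the file headers. The authors also deposited a log2 value table of the same arrays, whose columns share a median of 4.74 and matched their own arrays at r of 0.918 to 0.996. How its background was treated is not given in the sources used here.

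Here log2 of the processed intensity was taken minus the log2 of the array's 75th percentile over 59305 non-control spots. Outlier spots were left out and spots of a probe were averaged. After the filter 30692 probes were left. Each gene took the values of its brightest kept probe. RefSeq accessions named 32994 probes, the other 23611 kept the array's name, and of the 16 probes 13 matched RefSeq with no disagreement. Positions of probes on mm9 come from the array files, with no exon annotation. No amino acid sequence was used here.

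Genotypes were compared in limma 3.58.1 (R 4.3.3; lmFit, eBayes) across all genes or all kept probes, without covariates, with Benjamini-Hochberg adjustment. Marker scores and log ratios were tested by exact permutation, two-sided, over 252 arrangements (SciPy 1.17.1, Python 3.11.15). Array precision is limited by the 5 arrays of each genotype. Tested on simulated data, 20597 genes of which 200 differed, it called 22% of those that differed by log2 0.5, 82% at 1 and 99% at 2, while 4.35%, 1.80% and 6.60% of its calls were false.

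The 10 genes and the lists were chosen with earlier results of these data known. Named are all 10 genes, from each related list up to 4 past the threshold by adjusted p or, where none passed, 2 by p, the nearest profiles of the 3 most variable genes, and Hipk2. Ecm2, Omd, Podn, Mfap5, Cd248, Ryr2 and Thbs2 were chosen after their values were seen. Alternatives were normexp with an offset of 50, quantile normalization, the authors' table, other filters and probe rules, slide, row, replicate number, marker scores as covariates, and leaving out each array.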

Additional observations from a re-analysis of the deposited data

Results flagged for a closer look

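In groups of 5 arrays, a value is noted where its gap to the nearest other array exceeded 0.71 of the range of the group. Of 50 groups tested 2 were noted, and chance flags about 1 in 20 groups. Lumican on knockout replicate 5 was 2.48, above 1.80 to 1.93 on the other 4 knockout arrays. The chondrocyte marker score of wild-type replicate 3, over Col2a1, Cnmd and Sox9, was -2.93, below -2.56 to -2.47 on the other 4 wild-type arrays.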

How the results depend on the processing

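Versican kept its direction under every alternative run and its call under 17 of 22, and osteoglycin its direction under all and its call under 9 of 22. Against 2 called genes and 3 called probes of the 10-gene set, 0 were called without the filter, with slide and row, with the atrial score and with atrial and fat scores, and 1 to 2 genes and 1 to 3 probes when each array was left out. Of all genes 1017 were called, against 3111 with normexp (2233 up, 878 down), 173 without the filter, 458 within slide 2, 0 with slide and row, 57 with the atrial score, 8 with atrial and fat scores and 282 to 940 with an array left out. Of related genes 11 were called, against 24 with normexp, 0 without the filter, 4 within slide 2, 7 with slide as a block, 0 with slide and row, 0 with the atrial score, 0 with both scores and 3 to 12 with an array left out. Rises were 39.8% of calls, against 71.8% with normexp and 36.5% with quantile normalization. Where limma called 0, an unadjusted p under 0.05 was reached by 2 to 4 of the 10 genes, 16 to 29 related genes and, with slide and row, 2788 of all genes. The cause of these changes was not tested.

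Replicate numbers did not pair the samples: same-numbered deviations correlated at -0.106 to 0.050, and none was the best match. With the replicate block 0 genes and 0 probes of the set, 2 related genes and 164 of all genes were called, and the limma adjusted p was 0.0532 for versican and 0.0682 for osteoglycin.

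Apart from the mesothelial score, signs turned only for values that did not pass. The filter on all 10 arrays left no value for fibromodulin, Met and Mmp14. Decorin (0.022) was -0.038 with normexp, -0.18 with quantile normalization, -0.20 in the authors' table, -0.0065 within slide 2 and with slide as a block, -0.10 with slide and row and -0.065 to 0.11 with an array left out. Lumican was -0.010 with normexp, -0.10 with slide and row and -0.10 to 0.092 with an array left out. Fibromodulin was 0.016 with normexp, 0.24 with the atrial score and 0.048 with both scores. Asporin was 0.0090, 0.035 and -0.15 to 0.0052 with normexp, the atrial score and an array left out. Biglycan was 0.11 with the atrial score, 0.13 with both and -0.23 to 0.013 with an array left out. Prolargin probe A_65_P16773 was -0.024 within slide 2 and with slide as a block, -0.82 with slide and row and -0.13 to 0.28 with an array left out. Sox9 was -0.12 with probes averaged, and Hipk2 -0.050 to 0.15 with an array left out. The skeletal muscle score difference was -0.055 with quantile normalization, -0.11 within slide 2 and -0.061 to 0.12 with an array left out. The smooth muscle score was -0.033 within slide 2, and without the filter the mesothelial score was 0.39 and the tendon score 0.17.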
